A study of Daphnia magna with 15 samples.

Results

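The 6 libraries described here came from unexposed neonates of the water flea Daphnia magna and form the series' pair of control sets, control A and control B, with 3 libraries each, of 15 libraries in all. They were chosen by their column labels, control A 1 to 3 and control B 1 to 3. The labels give both sets the same history. Whole animals of 48 to 72 h, a laboratory strain bought from Aquatic Research Organisms, were held unfed for 24 h at 24 °C in 25 mL of medium without a drug, 20 to 25 animals at a time, and poly(A) libraries were prepared, each with 320 ng of total RNA as input. The other 9 libraries came from animals held in the same way with etoposide at 300 ng/L, imatinib mesylate at 2000 ng/L or cisplatin at 10 ng/L. The labels do not say in what the control sets differ, which set was made beside which drug, or whether the replicates of a set came from different cultures. The p-values below therefore refer to the spread among these libraries alone, part of which may be technical. They name 12 index sequences for the 15 libraries, without saying which library had which.

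Daphnia reproduce for most of the year by cloning, so that animals of the same laboratory culture share nearly all of their genome. The labels do not say whether control A and control B came from the same culture, and a difference of genotype between them was not tested. Neonates moult repeatedly as they grow, and genes of the cuticle, of digestion and of oxygen transport by haemoglobin are known in this genus to move with the moult, with food and with oxygen. Control sets of the same study, kept without a drug, show how far RNA levels differ between sets of libraries without exposure, whatever the source of the difference. The deposited identifiers are those of an assembly made from the reads, XLOC numbers for loci, and the files do not pair them with gene names, so the loci below are described by position, size and level, and which genes they are cannot be said.

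Values are FPKM (fragment counts divided by transcript length and by library size), summed over the transcripts of each locus. Loci that averaged 1 FPKM or more across the 6 libraries, 18012 in number, were compared on log2(FPKM + 1), control A minus control B, both after quantile normalization, which gives every library the same distribution of values, and without it. A locus was called when the adjusted p of limma, a linear model fitted across all loci, was under 0.05 in a fit of these 6 libraries. Fold changes refer to that scale, on which the change of a low locus comes out too small.

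The libraries of control A were uneven. Of the 18012 loci, 973, 86 and 29 were listed at 0 in control A 1, 2 and 3, against 71, 72 and 125 in control B 1, 2 and 3, and control A 1 stood apart from the other 5 libraries. Per library, 363 ± 529 loci were at 0 in control A, against 89.3 ± 30.9 loci in control B (SD, n = 3 each), which did not differ by an exact permutation test (two-sided p = 0.8, where 3 against 3 libraries cannot go below 0.1). FPKM carry no read counts. At 912 low loci longer than 600 bp with 1 transcript, where values move in steps of what 1 read is worth, the commonest ratio of control A 1 to control A 3 was 2.79, but ratios a factor of 2 lower and higher were nearly as common (25 loci at the commonest ratio, against 21 and 15), so the relative depth of control A 1 is not settled. At these low loci it listed 406 at 0, against 38 to 74 in the other 5 libraries.

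The median locus measured 11.1, 12.2 and 12.8 FPKM in control A 1, 2 and 3, against 14.6, 14.1 and 14.0 FPKM in control B 1, 2 and 3. All 3 control A libraries lay below all 3 control B libraries. The median log2 value was 3.70 ± 0.096 in control A, against 3.93 ± 0.031 for control B (SD, n = 3 each; exact permutation test, two-sided p = 0.1, the smallest this design allows), and the median log2 difference over all loci was -0.24. The offset was not the same at all levels of expression. At loci of 3 to 10 FPKM the unnormalised median difference from control B was -0.41, -0.27 and -0.19 in control A 1, 2 and 3, whereas at loci of 100 FPKM or more it was 0.28, 0.09 and -0.07. The slope with level was steepest in control A 1. After quantile normalization the median difference over all loci was -0.08, and in control A 1 it was 0.22 at loci of 1 to 3 FPKM and -0.12 at those of 100 FPKM or more, so a dependence on level was left there in the opposite sense.

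**Figure D1:**
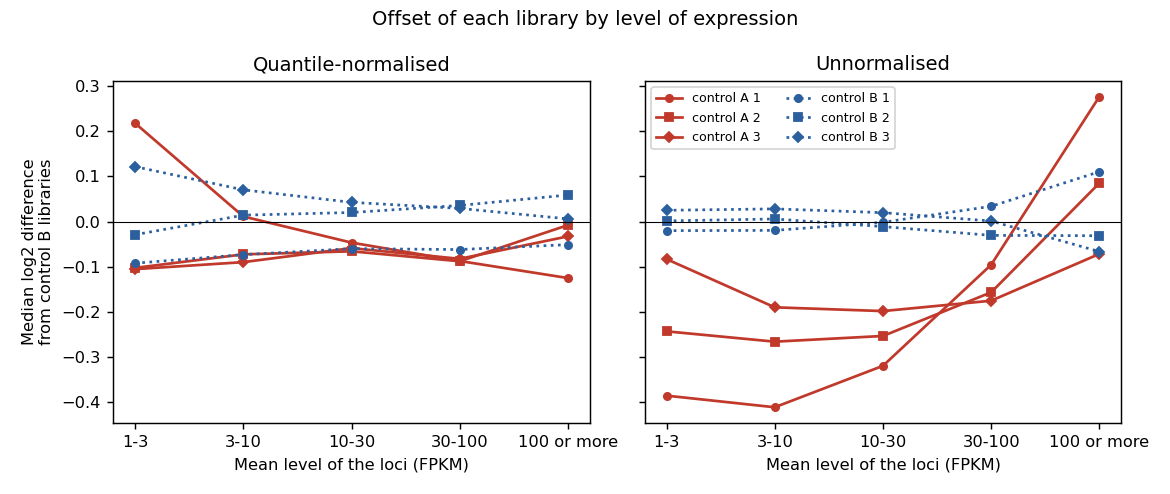
Median log2 difference of each library from control B (vertical axis; for a control B library, from the other 2) at loci grouped by mean FPKM (horizontal axis), after quantile normalization on the left and without it on the right. Without normalization the control A lines run from -0.41 at 3 to 10 FPKM in control A 1 up to 0.28 at 100 FPKM or more, while the control B lines stay within 0.11 of 0.

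Libraries of different sets lay about as far apart as libraries within control A. As a median absolute log2 difference over loci after quantile normalization, pairs of control A libraries lay 0.36 to 0.47 apart and pairs across the sets 0.40 to 0.47, against 0.18 to 0.21 for pairs of control B libraries. Every control B pair was thus nearer than control A 2 and control A 3, the nearest control A pair. At 0.36 that control A pair was in turn nearer than every pair across the sets. More than a 2-fold difference was seen at 14.1% to 21.8% of loci between control A libraries, at 17.9% to 22.3% across the sets and at 5.54% to 7.22% between control B libraries. The median SD per locus was 0.37 within control A and 0.17 within control B on the quantile-normalised log2 scale, and 79.1% of loci had the larger SD in control A (82.2% without normalization). These are descriptions over loci of 6 libraries, and loci are not independent replicates.

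**Figure D2:**
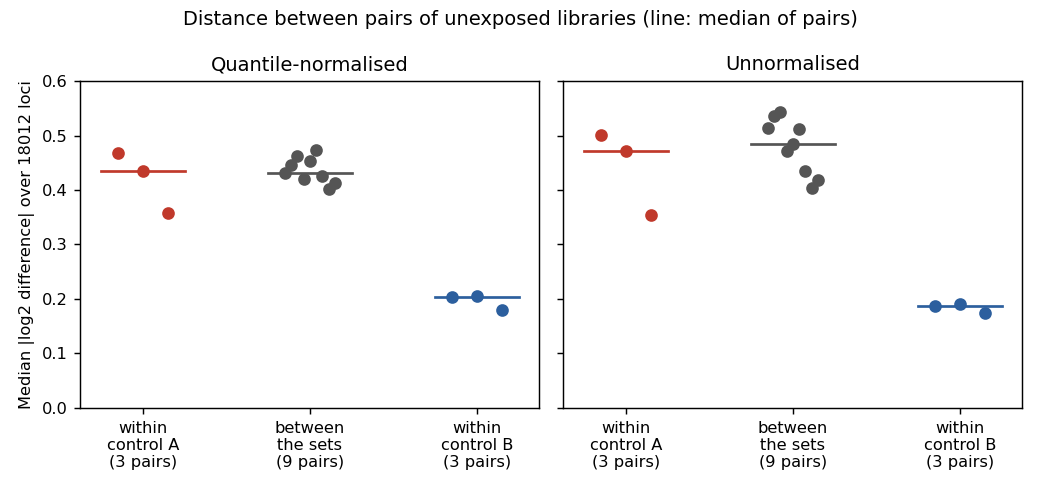
Median absolute log2 difference over 18012 loci (vertical axis) for each pair of libraries within control A, between the sets and within control B, after quantile normalization on the left and without it on the right; lines are medians over pairs. Pairs within control A (0.36 to 0.47) overlap those between the sets (0.40 to 0.47), and pairs within control B lie at 0.18 to 0.21 on the left.

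Between these unexposed sets, 1204 of 18012 loci (6.68%) were called after quantile normalization, 734 higher in control A (4.08%) and 470 lower (2.61%). Without normalization 1190 were called (6.61%), 488 higher (2.71%) and 702 lower (3.9%). The majority direction therefore depended on the scaling. Of the quantile-normalised calls 61.0% were higher in control A, against 41.0% of the unnormalised calls and 71.9% of the 841 calls after median centring (4.67% of loci), where 605 were higher (3.36%) and 236 lower (1.31%). The scalings shared 860 loci called in the same direction (4.77%), 479 higher (2.66%) and 381 lower (2.12%), which is 71.4% of the quantile-normalised and 72.3% of the unnormalised calls, and 0 loci were called in opposite directions. After quantile normalization 255 further loci were called higher and 89 lower, while without it 9 further were called higher and 321 lower. The 3 control A values did not overlap the 3 control B values at 33.4% of all loci tested after quantile normalization (15.4% higher and 18% lower in control A) and at 38.7% without it (10.7% higher and 27.9% lower), so non-overlap was far more common than a call.

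The higher loci differed by more than the lower ones. Among quantile-normalised calls the median difference was 3.93-fold for the 734 higher loci and 2.38-fold for the 470 lower loci, and differences over 4-fold were found at 360 and 74 of them. Without normalization the medians were 4.77-fold for 488 higher and 2.201-fold for 702 lower loci. The smallest difference called was 1.43-fold after quantile normalization. For 49.7% of loci (8955) after quantile normalization, and for 44.8% (8063) without it, the 95% interval of the difference stayed inside 2-fold in both directions; at the other loci it reached 2-fold or more. Another 1644 loci differed by over 2-fold in the quantile-normalised means and were not called.

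**Figure D3:**
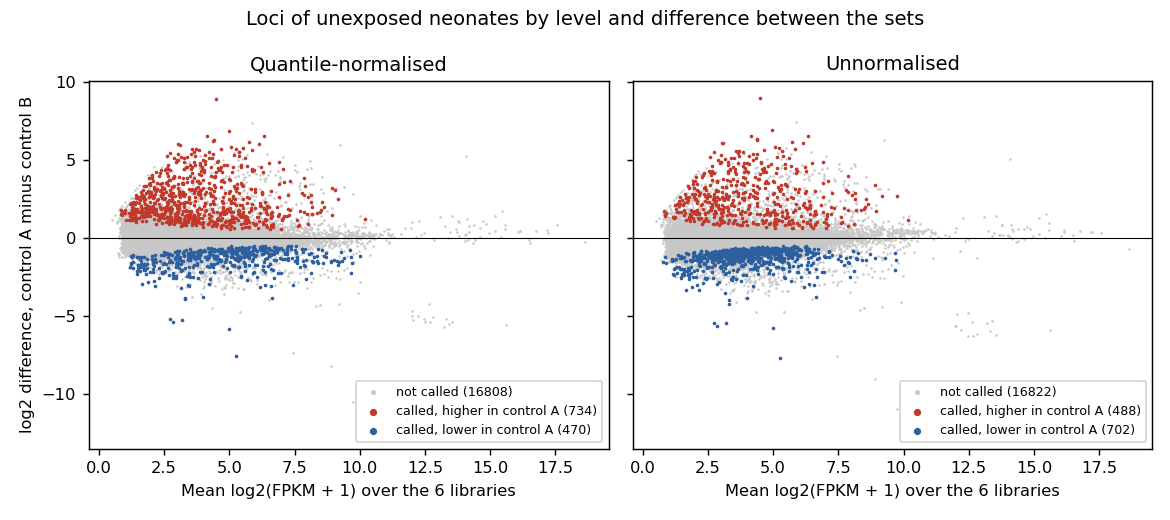
Log2 difference, control A minus control B (vertical axis), against the mean log2(FPKM + 1) of each of 18012 loci (horizontal axis), after quantile normalization on the left and without it on the right. Red points are called loci higher in control A (734 on the left, 488 on the right) and blue points called loci lower in control A (470 and 702); the red points reach farther from 0 than most blue ones.

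The number of calls changed with any 1 library left out, and it fell furthest when any 1 of the control B libraries was left out. After quantile normalization the 1204 calls became 217, 18 and 52 without control B 1, 2 and 3, and 1928, 1248 and 442 without control A 1, 2 and 3. Without normalization the 1190 became 8, 2 and 5 without control B 1, 2 and 3, and 2384, 1166 and 558 without control A 1, 2 and 3. Both counts were higher without control A 1, the library with the most loci at 0. Without that library, quantile normalization gave 1025 higher and 903 lower loci, and there were 891 higher and 1493 lower without normalization. Leaving out control A 3, in place of control A 1, turned the quantile-normalised majority, with 192 higher and 250 lower. The differences themselves moved little. All 1204 quantile-normalised calls kept their sign with any 1 library left out, and their median absolute log2 difference, 1.62 with all libraries, was 1.57 to 1.65. Each of the 1204 also kept an unadjusted p under 0.05 (limma) in these fits, as did each of the 1190 without normalization. These loci were picked by their p in the same libraries, which the fits largely share. The kept signs, sizes and p are therefore a description and no independent check. With 1 library left out the fits had 3 residual degrees of freedom, in place of 4. The median residual SD after quantile normalization was 0.31 with all 6 libraries, 0.33 to 0.34 without a control B library, and 0.23, 0.27 and 0.28 without control A 1, 2 and 3. The count without control A 3 was under that with all 6 although its residual SD was smaller, and the cause of the changes in count was not tested. Called with any 1 of the 6 libraries left out were 17 loci after quantile normalization, 11 higher and 6 lower, and 2 loci without it, both lower.

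Among loci of 300 bp or more that were called under both scalings, with no overlap between the sets, those with the largest quantile-normalised differences are given first. XLOC_005429 (scaffold01193, 69420 to 70335) measured 678, 192 and 306 FPKM in control A 1, 2 and 3, against 11.3, 0.263 and 0.551 FPKM in control B 1, 2 and 3. All control A values lay far above those of control B, of which control B 1 was the highest. The log2 difference was 6.85 (SE 0.88; limma, adjusted p = 0.0164), and leaving out control A 3, control B 2 or control B 3 ended the call (adjusted p of limma 0.0531, 0.0643 and 0.0708). XLOC_013318 (scaffold02219, 48405 to 49113) measured 226, 125 and 164 FPKM in control A, against 2.23, 1.02 and 0 FPKM in control B, a log2 difference of 6.52 (SE 0.39; limma, adjusted p = 0.00579). It kept its quantile-normalised call with each library left out and lost the unnormalised one without control B 2 (limma, adjusted p = 0.0788). Both loci list 1 transcript and overlap no other locus.

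The 2 largest in the lower direction were neighbours on scaffold01203. XLOC_005532 (5417 to 6063) measured 0, 4.45 and 2.29 FPKM in control A 1, 2 and 3, against 655, 426 and 601 FPKM in control B 1, 2 and 3. The log2 difference was -7.58 (SE 0.43; limma, adjusted p = 0.00579), and the unnormalised call was lost without control B 1, 2 or 3 (limma, adjusted p = 0.0536, 0.0788 and 0.0732). XLOC_005533 (6934 to 7669) measured 3.63, 2.39 and 3.85 FPKM in control A, against 263, 189 and 272 FPKM in control B. Its libraries agreed closely within each set, the log2 difference was -5.84 (SE 0.24; limma, adjusted p = 0.00347), and it was called under all 14 alternatives tried with either scaling. It is 1 of the 2 loci called under both scalings with any library left out. The other, XLOC_005540 (6653 to 6829), lies between these neighbours; it is named because the count was 2 and was chosen after its values were seen. XLOC_005540 was listed at 0 in all 3 control A libraries, against 48.5, 41.7 and 62.4 FPKM in control B (limma, adjusted p = 0.00579). At 176 bp it is short, and its control A values have no spread.

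These 3 loci belong to a longer stretch of scaffold01203 that was lower in control A. Of the 16 loci tested on the scaffold, 5 were called under both scalings, all lower, where 2.12% of all loci tested were. They lay between 5417 and 22142. The stretch was picked out after the values were seen. Of these 5, quantile-normalised calls numbered 4, 3 and 3 without control B 1, 2 and 3 and 5, 4 and 4 without control A 1, 2 and 3, and 2 were called without normalization when any control B library was left out. Beyond the 3 loci already given, the locus at 18534 to 19216 measured 103.4, 180.1 and 123.9 FPKM in control A, against 613, 567 and 562 FPKM in control B (log2 difference -2.28, SE 0.24; limma, adjusted p = 0.0112). The adjoining locus at 19291 to 22142 measured 26.8, 21.1 and 25.3 FPKM in control A, against 40.6, 44.4 and 44.0 FPKM in control B (log2 difference -0.68, SE 0.15; limma, adjusted p = 0.0474). Between these groups lay 4 loci, from 8911 to 15402, that were not called, with log2 differences from -3.27 to -2.63 and control A libraries far apart. The first of them, at 8911 to 9905, measured 0, 200 and 14.6 FPKM in control A 1, 2 and 3, against 191, 89.8 and 222 FPKM in control B, so that control A 2 lay within the range of control B (limma, adjusted p = 0.263). On either side the sets were close. The locus before the stretch measured 31.1, 32.7 and 34.1 FPKM in control A, against 36.4, 31.8 and 38.6 FPKM in control B, and the 6 loci after it had log2 differences from -0.20 to 0.20.

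**Figure D4:**
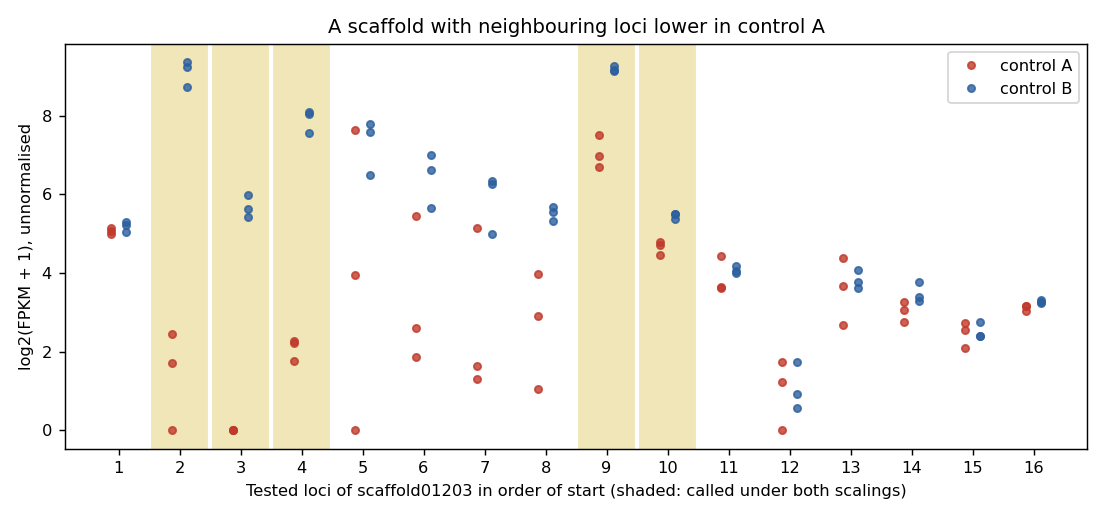
Unnormalised log2(FPKM + 1) (vertical axis) of the 16 tested loci of scaffold01203 in order of their start (horizontal axis), with 3 control A libraries in red left of 3 control B libraries in blue; shading marks the 5 loci called under both scalings. At the 3 loci numbered 2, 3 and 4 every control A value is under 4.5 FPKM and every control B value over 41 FPKM, at loci 5 to 8 the control A values scatter, and from locus 11 on the sets overlap or nearly so.

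Called loci lay beside called loci of the same direction on other scaffolds too. Of 358 loci called higher under both scalings and followed on the scaffold by a locus that did not overlap them, 19.0% had a next locus that was also called higher, where 2.66% of all loci tested were. Of 293 called lower, 17.7% were followed by a locus called lower, where 2.12% of all were. Pairs called in the same direction numbered 120 (68 higher and 52 lower), with a median gap of 486 bp (622 bp over all pairs), and pairs called in opposite directions numbered 7. On scaffold01396, 8 of 19 tested loci were called higher, between 16668 and 37327, with median levels of 49.98, 129 and 101 FPKM in control A 1, 2 and 3, against 3.996, 3.89 and 3.06 FPKM in control B 1, 2 and 3. On scaffold01591, 10 of 32 were called lower, between 31791 and 75739 and 6 of them in a row, with median levels of 13.5, 10.0 and 15.3 FPKM in control A, against 43.3, 44.2 and 45.8 FPKM in control B. These scaffolds were picked out after their values were seen, and their calls fell in number when any 1 control B library was left out. Of the 8 loci of scaffold01396, quantile-normalised calls numbered 5, 0 and 1 without control B 1, 2 and 3, against 8, 8 and 6 without control A 1, 2 and 3. Of the 10 loci of scaffold01591, they numbered 1, 0 and 0 without control B 1, 2 and 3, against 10, 8 and 6 without control A 1, 2 and 3. Without normalization no locus of either run was called when any control B library was left out. Of the 643 scaffolds with at least 10 tested loci, 351 held no locus called under both scalings. Whether neighbouring loci are pieces of 1 transcript or share reads was not tested.

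Among the remaining loci of 300 bp or more called under both scalings without overlap, those with the smallest unnormalised p in each direction follow. XLOC_008517 (scaffold01585, 47841 to 49427; 3 transcripts) measured 75.5, 141 and 106 FPKM in control A 1, 2 and 3, against 5.11, 4.08 and 4.72 FPKM in control B 1, 2 and 3. The log2 difference without normalization was 4.23 (SE 0.25; limma, adjusted p = 0.00829), and the call was lost without control B 2 or 3 (limma, adjusted p = 0.0788 and 0.0628). XLOC_017400 (scaffold03138, 3569 to 4622; 2 transcripts) measured 102, 259 and 206 FPKM in control A, against 1.72, 3.42 and 2.97 FPKM in control B, a log2 difference of 5.61 (SE 0.38; limma, adjusted p = 0.00942). Within control A the libraries ranged over more than 2-fold at this locus, and within control B over nearly 2-fold, with a wide gap between the sets. XLOC_018267 (scaffold03406, 5075 to 7341) measured 47.7, 44.8 and 49.8 FPKM in control A, against 160, 162 and 162 FPKM in control B, a log2 difference of -1.74 (SE 0.11; limma, adjusted p = 0.00942). Its libraries lay close together within each set. XLOC_001030 (scaffold00404, 6488 to 12809) measured 0.280, 0.118 and 0.371 FPKM in control A, against 9.03, 9.87 and 11.6 FPKM in control B (log2 difference -3.15, SE 0.21; limma, adjusted p = 0.00942). It overlaps another locus. XLOC_017400, XLOC_018267 and XLOC_001030 each lost the unnormalised call without control B 1, 2 or 3 (limma, adjusted p from 0.0512 to 0.0788), and XLOC_018267 and XLOC_001030 also lost quantile-normalised calls there (limma, adjusted p = 0.052 for XLOC_018267 without control B 2, and 0.051 to 0.0707 for XLOC_001030 without control B 1, 2 or 3).

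Among loci of 300 bp or more, the 2 most abundant were not called. XLOC_010493 (scaffold01841, 1813 to 5947) measured 6384, 4984 and 4192 FPKM in control A 1, 2 and 3, against 3603, 3207 and 3168 FPKM in control B 1, 2 and 3, which is 1.54-fold without normalization and 2.01-fold with it (limma, adjusted p = 0.263 and 0.154). The control A values all lay above those of control B, and the interval of the quantile-normalised difference ran from 1.09-fold to 3.73-fold. XLOC_012387 (scaffold02078, 2 to 2072) measured 7075, 4191 and 3208 FPKM in control A, against 4069, 3296 and 3427 FPKM in control B, with overlapping sets (limma, adjusted p = 0.587 without normalization and 0.411 with it). The quantile-normalised values of both depended on the short loci. With loci under 300 bp left out before normalization, the log2 difference of XLOC_010493 was 0.19 (limma, adjusted p = 0.495), against 1.01 with them, and that of XLOC_012387 was -0.15 (limma, adjusted p = 0.536), against 0.61 with them. Among loci of at least 300 bp and 30 FPKM, XLOC_006667 (scaffold01333, 39221 to 40862) and XLOC_016750 (scaffold02931, 26308 to 27637) were the 2 whose quantile-normalised 95% interval reached least far from 0. XLOC_006667 measured 167, 152 and 136 FPKM in control A, against 144, 130 and 137 FPKM in control B, and its quantile-normalised difference lay between 0.832-fold and 1.20-fold with 95% confidence. XLOC_016750 measured 172, 142 and 139 FPKM in control A, against 140, 130 and 141 FPKM in control B. Without normalization their log2 differences were 0.14 for XLOC_006667 and 0.13 for XLOC_016750.

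Calls were more frequent at high levels of expression than at low ones. Without normalization 2.45% of loci were called at 1 to 3 FPKM. The share was 8.73% at 30 to 100 and 8.62% at 100 FPKM or more. After quantile normalization 3.87% of 2326 loci at 1 to 3 FPKM were called, 5.69% of 4917 at 3 to 10, 5.58% of 5686 at 10 to 30, 9.20% of 3575 at 30 to 100 and 12.5% of 1508 at 100 FPKM or more, where 6.68% of all loci were. The replicates were also tighter at high levels: at 1 to 3 FPKM the median SD was 0.49 in control A, against 0.29 for control B, and at 100 FPKM or more it was 0.31 in control A, against 0.13 for control B. At the lowest level 70 of 90 calls were higher in control A, and at the highest 90 of 188. Without normalization those numbers were 27 of 57 and 81 of 130, so the share of higher calls at both ends moved with the scaling. By size, 0 of 73 loci under 100 bp were called under either scaling. An unadjusted p under 0.05 (limma) was found at 7 of them after quantile normalization and at 4 without it. Over all 18012 loci tested, 4626 and 5295 had such a p. At the loci under 100 bp control A had a median SD of 1.12 and control B one of 0.54. From 100 bp upward, 5.52% to 7.91% of each size class were called after quantile normalization, close to the 6.68% of all loci. By structure, 6.61% of 11336 loci with 1 transcript were called and 12.5% of 136 loci with 10 or more, whose median SD was 0.24 in control A, against 0.12 for control B (0.40 and 0.19 at loci with 1 transcript). Of the 860 loci called under both scalings, 22.4% share their exact interval with another locus, as do 29.8% of all loci tested; the kit marks strand, but whether the FPKM used it is not stated, so reads of such partners cannot be told apart.

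At the level of single transcripts, a fit of the 26008 transcripts that averaged 1 FPKM or more called 643 (2.47%), 397 higher (1.53%) and 246 lower (0.946%) in control A (limma, adjusted p under 0.05 after quantile normalization). They lay in 607 loci, of which 537 were also called as loci. Of the 33 loci with at least 2 called transcripts, 21 had all of them higher and 6 all of them lower, and 6 had transcripts called in opposite directions. A small group of loci was listed in 1 set alone. At least 1 FPKM in all 3 control A libraries and 0 in all 3 control B libraries was found at 8 loci, with a median of 40.5 FPKM in control A, and the reverse was found at 5 loci, with a median of 10.9 FPKM in control B. In each direction 3 of these were under 300 bp, where FPKM are least steady.

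The loci called between the control sets were then read in the 9 drug libraries, none of which entered that comparison. Fitted without any control library, the mean of etoposide and imatinib differed from cisplatin at 27.6% of the same 18012 loci, 12.2% higher and 15.4% lower (limma, adjusted p under 0.05, quantile-normalised). Of the 734 loci higher in control A, 416 (56.7%) were higher in etoposide and imatinib than in cisplatin and 1 was lower. Of the 470 loci lower in control A, 358 (76.2%) were lower in etoposide and imatinib than in cisplatin and 2 were higher. The median log2 difference between these drug groups was 1.22 over the 734 loci and -1.21 over the 470, against -0.03 over all loci. Without normalization 261 of 488 higher loci were higher in etoposide and imatinib (53.5%, background 8.15%), and 517 of 702 lower loci were lower there (73.6%, background 26%).

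Over the 479 loci called higher under both scalings, the median log2(FPKM + 1) was 5.40, 5.11 and 5.51 in control A 1, 2 and 3, 4.75, 5.44 and 4.97 with etoposide, 5.13, 4.87 and 4.78 with imatinib, and 3.16, 3.28 and 2.04 with cisplatin, against 2.54, 2.14 and 2.01 in control B 1, 2 and 3. Etoposide and imatinib libraries lay beside control A at these loci, and cisplatin libraries near control B, with no overlap between the etoposide and imatinib libraries and the cisplatin libraries. Over the 381 loci called lower under both scalings the medians were 4.02, 4.01 and 4.01 in control A, 4.52, 3.99 and 3.99 with etoposide, 3.89, 3.99 and 3.53 with imatinib, and 5.36, 5.20 and 5.34 with cisplatin, against 5.27, 5.32 and 5.41 in control B. The control A and control B medians are those the loci were chosen on, and are given as a description. XLOC_005533, for example, averaged 37.2 ± 20.2 FPKM with etoposide, 12.3 ± 14.9 FPKM with imatinib and 228 ± 23.2 FPKM with cisplatin (SD, n = 3 each), where control A averaged 3.29 ± 0.784 FPKM and control B 242 ± 45.4 FPKM. XLOC_018267 averaged 39.5 ± 26.2 FPKM with etoposide, 11.7 ± 6.72 FPKM with imatinib and 168 ± 24.6 FPKM with cisplatin, beside 47.4 ± 2.52 FPKM in control A and 161 ± 1.19 FPKM in control B. Because the labels do not say how libraries were grouped in handling, an effect of a drug and a difference between sets of libraries cannot be told apart in these values.

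**Figure D5:**
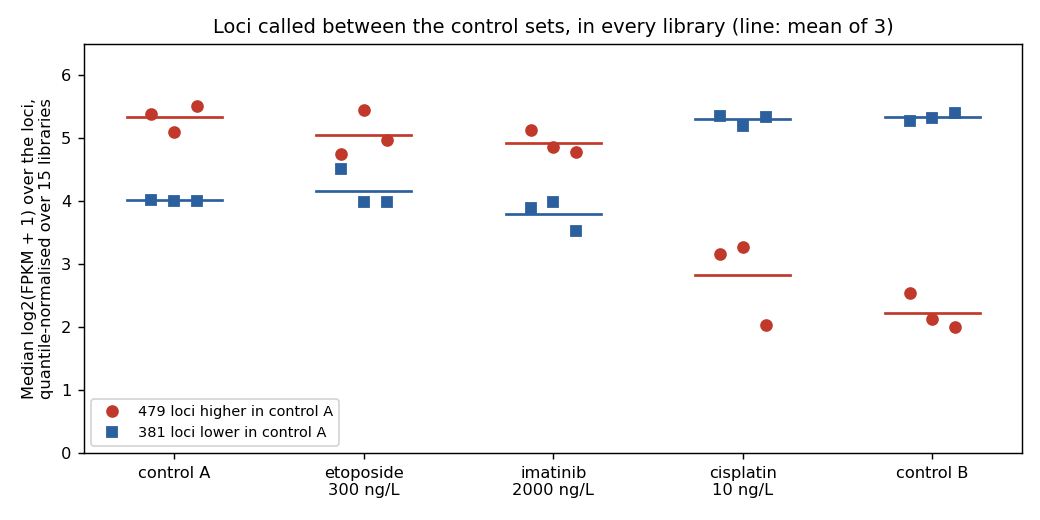
Median log2(FPKM + 1), quantile-normalised over all 15 libraries (vertical axis), of the 479 loci higher (red circles) and the 381 loci lower (blue squares) in control A than in control B under both scalings, in each library of the 5 groups (horizontal axis); lines are means of 3 libraries. Etoposide and imatinib libraries lie at 4.75 to 5.44 for the higher loci, near control A, and cisplatin libraries at 2.04 to 3.28, near control B.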

How the data were processed

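The deposited table holds FPKM made by the authors, 1 column per library and 1 row per assembled transcript (33982 transcripts in 18877 loci on 2545 scaffolds). Per the submitters' processing notes, the tools included Cufflinks 2.2.1 with Cuffdiff, Bowtie2 2.1 and TopHat2 2.0, and before them Trim Galore and CASAVA 1.8.0; their settings, the genome build and any scaling of libraries to each other were not given in the sources used here. Positions are as the table gives them. None of the identifiers matched the reference table (0 of the 28335 genes of RefSeq assembly ASM2063170v1.1), so no sequence is shown and no gene list was used.

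FPKM were summed per locus, and loci that averaged 1 FPKM or more across the 6 control libraries entered limma 3.58.1 (R 4.3.3) as log2(FPKM + 1) (with a trend of variance on level, Benjamini-Hochberg adjustment, threshold 0.05), after quantile normalization and without it. Only the 6 libraries were fitted. The mean of etoposide and imatinib was set against cisplatin in a fit of the 9 drug libraries. The fit was checked on simulated data, drawn without offsets between libraries, so the check does not cover the offsets described above. Single values per library were compared by exact permutation (scipy 1.17.1, Python 3.11.15). Depth is unknown beyond steps in low FPKM, read as ratios to control A 3 in bins of 0.04 on the log2 scale, so no counting intervals are given.

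Loci named for a difference were at least 300 bp long and called alike under both scalings without overlap of the sets. They were the 2 largest quantile-normalised differences each way, then, among those not named already, the 2 smallest unnormalised p each way. Added to these, at 300 bp or more, were the 2 most abundant and, from 30 FPKM, the 2 whose interval reached least far from 0. The comparison, classes and rules were chosen with earlier results of these data known; the transcript fit, the stretches of scaffolds and the read steps were added after seeing the data. Alternatives were another pseudocount, other filters, short loci left out, all 15 libraries fitted, library weights, median centring, the replicate number as a block, and each library left out.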

Additional observations from a re-analysis of the deposited data

How the results depend on the processing

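Calls between control A and control B numbered 1204 after quantile normalization and 1190 without it. They were 3263 and 4243 with all 15 libraries in the fit (10 residual degrees of freedom in place of 4, and a median residual SD of 0.30 under either scaling, in place of 0.31 and 0.32); the cause was not tested. Same-numbered libraries did not deviate together (correlations of -0.05, -0.15 and 0.14 after quantile normalization, and control A 1 and control A 2 correlated best with another number), so the numbers were not taken as pairs; with the replicate number as a block 578 loci were called after quantile normalization (437 higher and 141 lower) and 285 without it (218 higher and 67 lower, a turn of the unnormalised majority). With 1 library left out the counts ranged from 18 to 1928 after quantile normalization and from 2 to 2384 without it. Total counts stayed within 1.5 times of those reported with a pseudocount of 0.1, with no filter, a mean of at least 10 FPKM or the mean taken over 15 libraries, without loci under 300 bp, with library weights and after median centring (867 to 1450 and 922 to 1693, with 841 after centring). By direction, 3 counts moved further: 236 lower (against 470) after median centring, 482 higher (against 734) at a mean of at least 10 FPKM, and 1082 lower without normalization (against 702) with library weights. The median unnormalised log2 difference was -0.28 to -0.21 under its alternatives. No named locus called here changed sign under any alternative. Of those not called, XLOC_012387, XLOC_006667 and XLOC_016750 changed sign after quantile normalization without loci under 300 bp. Under the quantile-normalised alternatives XLOC_006667 ranged from -0.03 to 0.02 and XLOC_016750 from -0.04 to 0.05. XLOC_010493 was called with all 15 libraries fitted (limma, adjusted p = 0.0437), against 0.154 with 6. The drug comparison gave 4826 and 5889 loci with all 15 libraries fitted, against 4972 and 6147. With 3 libraries a set and FPKM in place of counts, small differences and loci near 1 FPKM cannot be resolved.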
